A study of Mus musculus with 10 samples.

Results

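Conventional T cells and T cells that carried an active Foxp3 promoter without working Foxp3 were compared on 4 of the 10 Mouse Genome 430 2.0 arrays of the series. The members were chosen by sample title. The 2 arrays titled Foxp3(-)epigenetics(+) are called scurfy mock here, and the 2 arrays titled Foxp3(-)epigenetics(-) are called Tconv mock. All 45101 probe sets of each array were used, and none of the measured values entered the choice. Scurfy mock cells were GFP+CD4+ spleen cells of DEREG/Scurfy mice, in which Foxp3 carries the scurfy mutation. Tconv mock cells were GFP-CD4+ spleen cells from DEREG mice with an intact Foxp3 gene. Both kinds of cell were stimulated with antibodies to CD3 and CD28, received the empty retrovirus pGCSamIN with its NGFR marker, and were sorted as NGFR+ cells. The other groups, again with 2 arrays each, were GFP+ cells of DEREG mice with the empty virus (Treg mock), and scurfy GFP+ and DEREG GFP- cells labelled as given a Foxp3 virus (scurfy Foxp3 and Tconv Foxp3). The strain field reads DEREG_Balb/c for every array, the descriptions mark the scurfy arrays as D_S, and that abbreviation was read as DEREG/Scurfy. The Foxp3 genotype, read from that abbreviation, and the GFP sort both differ between scurfy mock and Tconv mock, so their parts in a difference cannot be told apart. The sources used here give no age or sex of the mice and leave unsaid whether the replicates were separate animals, so the spread behind each p-value is that between arrays and may be technical.

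Regulatory T cells (Treg) are defined by Foxp3, a transcription factor of the forkhead family that is encoded on the X chromosome. The scurfy mutation truncates the protein, so that mice lack Treg suppression and develop systemic autoimmunity, while the mutated gene can still be transcribed. DEREG mice carry a transgene in which the Foxp3 promoter drives a fusion of the diphtheria toxin receptor and green fluorescent protein, so that GFP marks cells in which that promoter is active. Treg also carry demethylated DNA at a set of loci, among them Foxp3, Ikzf2, Ikzf4, Ctla4, Il2ra and Tnfrsf18. The sample titles call the GFP+ cells epigenetics(+), and the comparison addresses what that starting state gives without working Foxp3.

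Median intensity ran from 18.8 to 36.5 over the 10 arrays. The scurfy mock arrays correlated at r = 0.920 across genes and the Tconv mock arrays at 0.965, where genes are not independent replicates. Both scurfy mock arrays matched scurfy Foxp3 1 better than each other, scurfy mock 1 at 0.925 and scurfy mock 2 at 0.974. A difference of over 1 log2 unit separated the scurfy mock arrays for 1603 of 11321 genes (14.2%) and the Tconv mock arrays for 697 (6.16%). The 4 arrays had T cell transcripts at high intensity, with Cd4 at 3719 and 3868 in scurfy mock and 2416 and 2422 in Tconv mock, and Cd3d at 4579 and 4400.2 against 3144 and 3139.8. The CD8 genes Cd8a and Cd8b1 summed to 72.9 to 108 in scurfy mock and 62.6 to 83.8 in Tconv mock. The 17 myeloid markers on the array summed to 281 and 233 in scurfy mock and to 258 and 108 in Tconv mock, and none of them was listed at 0. B cell markers (13 on the array) summed to 153 and 945 in scurfy mock 1 and 2 and to 295 and 194 in Tconv mock 1 and 2. Scurfy mock 2 stood above the other arrays in Ighm, the immunoglobulin mu chain (5.31 and 443 in scurfy mock, 7.42 and 27.0 in Tconv mock). Dendritic cell marker sums did not overlap, at 590 and 782 in scurfy mock against 207 and 361 in Tconv mock. NK cell marker sums did not overlap either, at 82.2 and 104.7 against 74.99 and 36.2. Sums of mast cell, red blood cell and platelet markers overlapped. The part of those cells in the results was not tested, and in RNA from many cells a smaller number of expressing cells cannot be told apart from less RNA per cell.

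Of 11321 genes tested, 65 differed between scurfy mock and Tconv mock at an adjusted p under 0.05 (limma with Benjamini-Hochberg adjustment), which is 0.574% of all genes. Such genes are called here, and every difference below is scurfy mock minus Tconv mock in log2(intensity + 16), with its standard error (SE), unless another comparison is named. The scale understates the change of a gene whose level in a group lies near the background. The called genes were 50 higher (0.442%) and 15 lower (0.132%) in scurfy mock. An unadjusted p under 0.05 was found for 1569 genes, 1246 higher and 323 lower. The median over all genes was 0.22, with 68.0% above 0, and it was -0.02 after quantile normalization and -0.05 at a common 75th percentile, so the differences are best read against 0.22. Both scurfy mock arrays lay above both Tconv mock arrays for 38.8% of all genes and below them for 12.1%. All 65 called genes had groups that did not overlap.

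The count of called genes rested on single arrays. It was 5 without Tconv mock 1, 10 without Tconv mock 2, 25 without scurfy mock 1 and 233 without scurfy mock 2. It fell as well without any 1 of the other arrays, most without either Tconv Foxp3 array. The Tconv Foxp3 arrays enter only through the estimate of the spread, the filter and the choice of probe set. All 65 kept their direction in every one of the 10 fits without 1 array that tested them. Cxcr6, Dgkk, Flicr, Foxp3 and Ikzf2 also kept the call in all 10, with Cxcr6 at an adjusted p of at most 0.0157. A fit on the compared groups alone, with 2 residual degrees of freedom, called 1 gene.

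**Figure D1:**
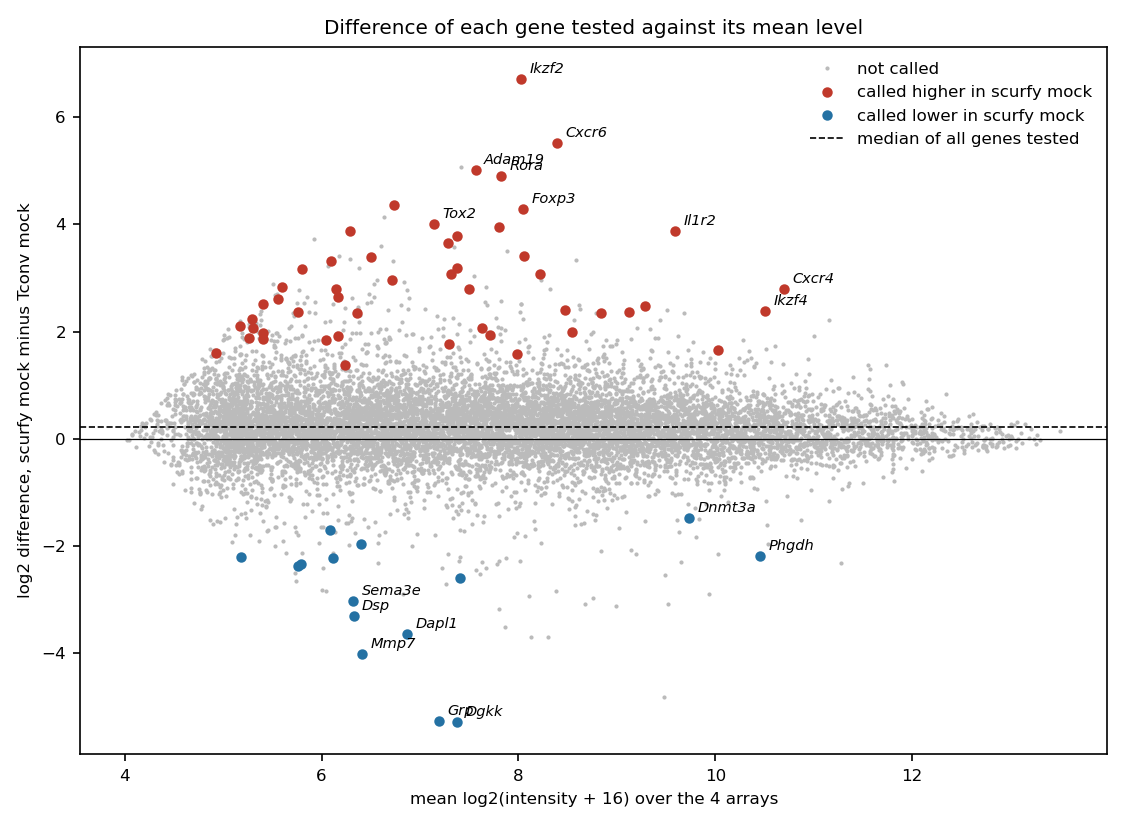
Difference of each of the 11321 genes tested between scurfy mock and Tconv mock (log2, vertical) against its mean level over the 4 arrays (log2 of intensity + 16, horizontal). Grey points are genes not called, red points the 50 called higher and blue points the 15 called lower in scurfy mock. The dashed line is the median of all genes at 0.22, and Ikzf2 stands highest at 6.70.

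Transcription factors of the Treg lineage held the gene with the largest difference. Ikzf2 encodes Helios, an Ikaros family factor of Treg, and its intensity was 3061 and 2303 on the scurfy mock arrays against 10.2 and 9.03 on the Tconv mock arrays. The groups stood far apart, at a difference of 6.70 (SE 0.30, adjusted p = 3.1e-05, 95% interval 6.04 to 7.37). Foxp3 itself was at 1188 and 1114 in scurfy mock and 53.9 and 35.9 in Tconv mock, without overlap (4.28, SE 0.30, adjusted p = 0.000779). Its probe set measures the transcript and gives no account of the protein. Ikzf4, which encodes Eos, a corepressor partner of Foxp3, was abundant in both groups at 3294 and 3314 against 721 and 539.8, and it rose by 2.38 (SE 0.29, adjusted p = 0.0136). That call ended without scurfy mock 1 or either Tconv mock array, where the difference ran from 2.17 to 2.58 over the 10 fits and the adjusted p reached 0.108. Of 27 Treg transcription factors tested, these 3 were called higher and 0 lower, against 0.442% and 0.132% of all genes. The median of the list was 0.19 against 0.22 for all genes. Among the other 24, Prdm1, which encodes Blimp-1, stood at 1.40 (adjusted p = 0.35), the Foxp3 partner Runx1 at 1.16 (adjusted p = 0.18) and Bach2, a repressor that keeps T cells quiescent, at -1.43 (adjusted p = 0.33).

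The 6 genes with known Treg-specific demethylated regions split in the same comparison. Ikzf2, Foxp3 and Ikzf4 were called, whereas Ctla4, Il2ra and Tnfrsf18 were not. Il2ra, the alpha chain of the IL-2 receptor that activated conventional T cells also make, read 7902 and 7962 in scurfy mock against 7507 and 7422 in Tconv mock (0.09, SE 0.24, 95% interval -0.46 to 0.63). Ctla4, a coinhibitory receptor, read 4592 and 4502 against 3336 and 2031, without overlap (0.80, SE 0.40, 95% interval -0.09 to 1.69). Tnfrsf18, which encodes GITR, read 4347 and 5361 against 5207 and 3106, and its groups overlapped (0.26, SE 0.33). At a common 75th percentile Il2ra stood at -0.23 and Tnfrsf18 at -0.059, and Tnfrsf18 stood at -0.11 without Tconv mock 2. All 6 genes were positive at the main setting, with a median of 1.59, and none of the 3 that were not called had a bound above a difference of 2.

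Promoter letters are printed for 4 called genes that carried large differences and had an entry in the RefSeq table (GRCm38.p6), namely Foxp3, the chemokine receptor gene Cxcr6, the nuclear receptor gene Rora and the decoy receptor gene Il1r2. Ikzf2 had no entry. Each run covers 300 bases, from 250 before the start of transcription to 50 after it, on the plus strand, with the only motif matches in capitals.
Foxp3, chrX:7579426-7579725: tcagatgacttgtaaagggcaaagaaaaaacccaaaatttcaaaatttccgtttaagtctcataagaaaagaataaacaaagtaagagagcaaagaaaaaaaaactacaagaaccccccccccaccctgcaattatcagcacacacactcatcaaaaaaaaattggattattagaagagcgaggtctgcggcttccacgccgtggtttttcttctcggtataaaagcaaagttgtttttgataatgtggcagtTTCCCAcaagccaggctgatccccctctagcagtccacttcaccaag
Cxcr6, chr9:123806227-123806526: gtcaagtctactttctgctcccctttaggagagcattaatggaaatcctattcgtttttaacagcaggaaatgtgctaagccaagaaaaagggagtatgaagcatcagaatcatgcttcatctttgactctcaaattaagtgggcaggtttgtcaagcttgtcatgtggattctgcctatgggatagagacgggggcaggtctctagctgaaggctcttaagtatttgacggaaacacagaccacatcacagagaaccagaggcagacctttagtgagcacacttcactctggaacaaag
Rora, chr9:68653536-68653835: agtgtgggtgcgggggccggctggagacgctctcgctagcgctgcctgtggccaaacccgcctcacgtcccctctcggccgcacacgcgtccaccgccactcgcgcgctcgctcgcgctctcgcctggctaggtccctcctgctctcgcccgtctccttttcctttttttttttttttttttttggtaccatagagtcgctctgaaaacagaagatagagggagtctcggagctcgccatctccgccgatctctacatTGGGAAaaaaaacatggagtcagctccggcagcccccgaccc
Il1r2, chr1:40085843-40086142: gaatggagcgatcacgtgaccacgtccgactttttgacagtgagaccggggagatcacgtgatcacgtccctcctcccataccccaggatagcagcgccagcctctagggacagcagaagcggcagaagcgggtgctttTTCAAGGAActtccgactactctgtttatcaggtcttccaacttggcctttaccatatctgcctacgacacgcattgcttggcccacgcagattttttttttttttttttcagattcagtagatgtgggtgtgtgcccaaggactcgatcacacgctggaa
The letters searched on both strands were TGANTCA (AP-1), TTCNNNGAA (STAT), AGGTCA (a nuclear receptor half-site), TGTTTAC (forkhead) and TGGGAA (the Ikaros core). The Foxp3 run held the Ikaros core on the minus strand at bases 254 to 259, and the Rora run held it on the plus strand at bases 259 to 264. A STAT match stood at bases 140 to 148 of the Il1r2 run, and the Cxcr6 run held none of these letters. Of the 50 genes called higher, 45 had a promoter in the table, and the Ikaros core was in 11 of them, the AP-1 letters in 3, forkhead in 3, STAT in 2 and the half-site in 2. Of the 15 called lower, 14 had one, with 3, 1, 1, 1 and 0 matches in that order. The Ikaros core was in 25.5% of all 27025 promoters, the half-site in 16.04%, STAT in 8.47%, AP-1 in 7.93% and forkhead in 3.55%. Among the 9222 tested genes with a promoter the shares were 22.8%, 12.1%, 6.79%, 4.88% and 2.47% in that order, against 24.4%, 4.44%, 4.44%, 6.67% and 6.67% of the 45 called higher, so AP-1 and the Ikaros core lie below or above the background by which of them is used. A match is a run of letters and not a measured site.

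Several genes that lie beside Foxp3 on the X chromosome were called as well. In gene order the tested neighbours looked at ran Clcn5, Usp27x, Ppp1r3f, Flicr, Foxp3, Ccdc22, Syp, Plp2, Gpkow and Wdr45. Cacna1f, between Ccdc22 and Syp, Prickle3, between Syp and Plp2, and Magix, between Plp2 and Gpkow, were not tested. Flicr, a noncoding RNA that modulates Foxp3, read 570.2 and 505 in scurfy mock and 32.8 and 24.0 in Tconv mock (3.64, SE 0.30, adjusted p = 0.0016). Syp, which encodes the synaptic vesicle protein synaptophysin, read 359 and 603 against 4.45 and 11.1, and it was called at 4.36 (SE 0.68, adjusted p = 0.0332). Ppp1r3f, a regulatory subunit of protein phosphatase 1, rose by 2.48 (SE 0.34), and Ccdc22, a subunit of an endosomal recycling complex, by 1.66 (SE 0.27). Usp27x, a deubiquitinase gene, stood at 1.44 (adjusted p = 0.124) and Plp2 at 0.48 (adjusted p = 0.41), and neither was called. Clcn5 at 1.13 (adjusted p = 0.35), Gpkow at 0.65 (adjusted p = 0.40) and Wdr45 at 0.33 (adjusted p = 0.68) were not called either. The groups of the 5 called genes did not overlap. Of these, Foxp3 and Flicr kept the call without any 1 array. Ppp1r3f lost it without scurfy mock 1 or either Tconv mock array (2.25 to 2.70 over the 10 fits), Syp in 8 fits (3.99 to 4.72) and Ccdc22 in 9 (1.43 to 1.89). The 2 probe sets of Ccdc22 disagreed, at 1.66 and 0.41.

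Rora, Tox2, Tshz3, Arnt2 and Snai2 were further transcription factor genes that rose. Rora encodes the nuclear receptor ROR-alpha, known in Th17 cells, innate lymphoid cells and tissue Treg, and it read 1873 and 792 in scurfy mock against 17.7 and 35.3 in Tconv mock. The difference was 4.89 (SE 0.52, adjusted p = 0.00794), and scurfy mock 1 was the higher of its group. Tox2, an HMG-box gene of the TOX family, read 588 and 508 against 13.6 and 26.0 (4.00, SE 0.38, adjusted p = 0.00443). Without Tconv mock 1 both calls ended, at an adjusted p of 0.071 for Rora and 0.052 for Tox2, while the differences stayed within 4.28 to 5.51 and 3.74 to 4.25. Tshz3, a zinc finger homeobox gene, stood at 3.87 (SE 0.49), and Arnt2, a basic helix-loop-helix partner of the aryl hydrocarbon receptor, at 2.63 (SE 0.28). Snai2, which encodes the zinc finger repressor Slug, stood at 1.87 (SE 0.31). These 3 had Tconv mock intensities between 2.04 and 16.9, near the array background. Snai2 exceeded the array median on 3 arrays only, both scurfy mock arrays among them, so it entered the test only through the group in which it was high. The calls of Tshz3 (3.02 to 4.72) and Arnt2 (2.44 to 2.82) ended without either Tconv mock array, and that of Snai2 ended in 7 of the 10 fits (1.69 to 2.05).

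Within the TOX family Tox itself read 45.6 and 79.2 in scurfy mock and 41.2 and 45.0 in Tconv mock and was not called (0.37, adjusted p = 0.65), and Tox4 stood at 0.57 (adjusted p = 0.36). Of 24 helper lineage transcription factors tested, Rora was the 1 called, and the list had a median of 0.46. Its other members included Irf1 at 1.47 (adjusted p = 0.19), Ahr, the aryl hydrocarbon receptor, at 1.29 (adjusted p = 0.19), Hlx at 1.31 (adjusted p = 0.26) and Zbtb16 at -1.52 (adjusted p = 0.19).

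**Figure D2:**
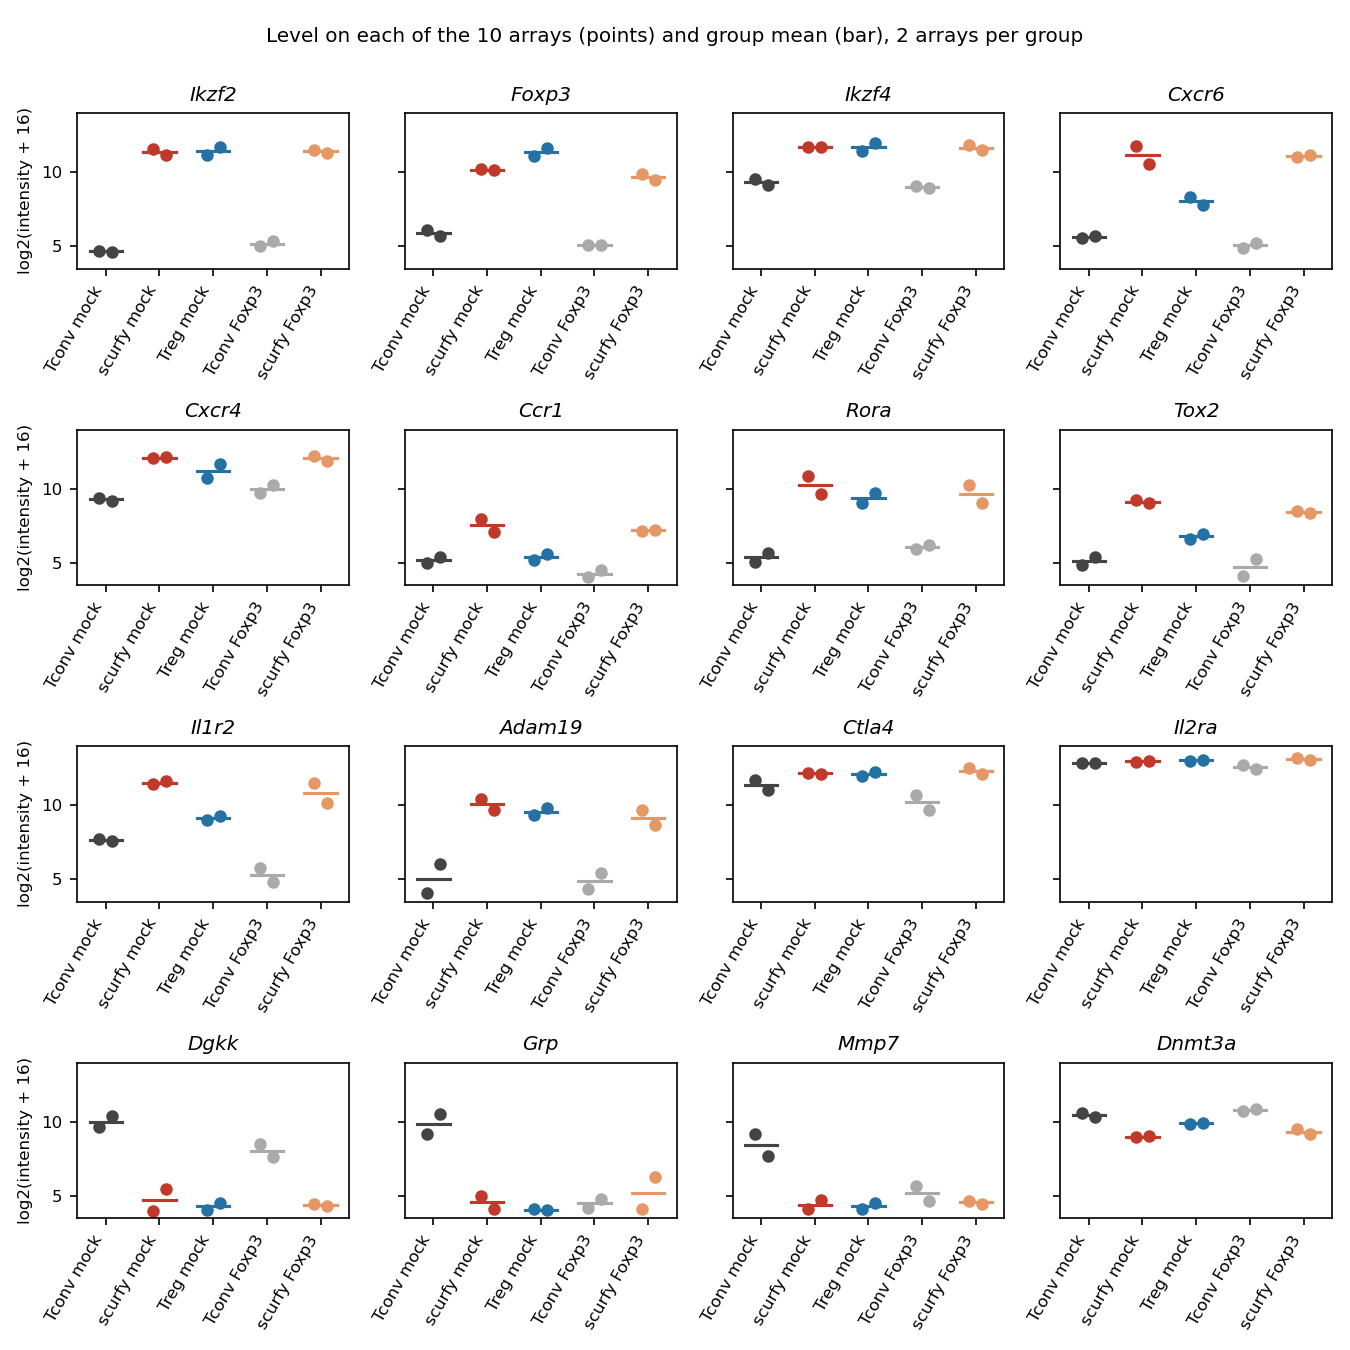
Level of 16 genes on each of the 10 arrays, as log2(intensity + 16), with 1 point per array and a bar at the mean of the 2 arrays of a group. Scurfy mock is red, Tconv mock dark grey, Treg mock blue, scurfy Foxp3 orange and Tconv Foxp3 light grey. Ikzf2 and Ikzf4 sat at like levels in the 3 GFP+ groups, Cxcr6, Tox2 and Il1r2 sat highest in the scurfy groups, and Grp and Mmp7 sat high on the Tconv mock arrays alone.

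Chemokine and homing receptors had 4 of 21 tested members called higher and 0 lower, with a median of 0.63. Of all genes, 0.442% were called higher and 0.132% lower, with a median of 0.22. This list, like the others, was chosen with earlier results of these data known, so the count is no test of the family. Cxcr6, the receptor for the membrane-bound chemokine CXCL16, was at 3433 and 1485 in scurfy mock and 31.4 and 36.5 in Tconv mock, and it rose by 5.51 (SE 0.40, adjusted p = 0.000779). The groups lay wide apart although scurfy mock 1 was above scurfy mock 2. Cxcr4, the receptor for CXCL12, was already abundant at 662 and 573 in Tconv mock and reached 4236 and 4451 in scurfy mock (2.79, SE 0.36, adjusted p = 0.0147). Gpr15, a receptor that directs T cells to the colon, read 109.9 and 90.0 against 0.652 and 5.90 (2.60, SE 0.40, adjusted p = 0.0300). Ccr1, a receptor for inflammatory CC chemokines, read 232 and 122 against 15.5 and 26.7 (2.34, SE 0.35, adjusted p = 0.0282). The call of Cxcr4 ended without scurfy mock 1 or either Tconv mock array (2.68 to 2.89 over the 10 fits). The calls of Gpr15 (2.40 to 2.79) and Ccr1 (1.91 to 2.76) ended in 7 of the 10 fits. The 17 other members were not called, among them Ccrl2 at 2.18 (adjusted p = 0.14), Ccr6 at 2.00 (adjusted p = 0.32) and Gpr183 at 1.58 (adjusted p = 0.25).

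Receptors and ligands of the interleukin 1 and TGF-beta systems each gave 1 called gene. Il1r2, which encodes a decoy receptor that binds interleukin 1 without signalling, read 2697 and 3197 in scurfy mock and 196 and 176 in Tconv mock (3.87, SE 0.45, adjusted p = 0.0129). It was the single called member of 7 interleukin 1 family receptors tested (median 0.55), and Il18rap, a subunit of the IL-18 receptor, stood at 2.54 (adjusted p = 0.15) with scurfy mock 1 far above scurfy mock 2 (311 and 50.1). Tgfb2, a TGF-beta ligand, read 73.9 and 152 against 9.10 and 6.96 (2.36, SE 0.35, adjusted p = 0.028). Its other probe sets, of lower intensity, gave 1.40, 1.28 and 0.91. Of 24 TGF-beta pathway genes tested (median 0.53) Tgfb2 was the 1 called. Tgfbr3, the coreceptor betaglycan, stood at 2.42 (adjusted p = 0.25). The Il1r2 call ended without either Tconv mock array (3.75 to 3.99), and the Tgfb2 call also ended without either Tconv Foxp3 array (1.91 to 2.81).

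Metalloproteinases changed in both directions. Adam19, a membrane sheddase, read 1391 and 803 in scurfy mock and 1.17 and 49.0 in Tconv mock (5.01, SE 0.65, adjusted p = 0.0152). Its second probe set gave 4.35. Adam8, another sheddase, read 502 and 302 against 82.1 and 79.6 (2.07, SE 0.35, adjusted p = 0.0448), and Mmp7, a secreted protease also called matrilysin, read 1.34 and 9.98 against 559 and 187 (-4.01, SE 0.51, adjusted p = 0.0147). The groups of each gene did not overlap. Mmp7 exceeded the array median on 3 arrays only, both Tconv mock arrays among them, so it entered the test only through the group in which it was high. Of 18 metalloproteinases and inhibitors tested (median 0.34), 2 were called higher and 1 lower, against 0.442% and 0.132% of all genes. Mmp10, stromelysin 2, missed the threshold at 2.71 (adjusted p = 0.058). Adam19 (4.05 to 5.97) and Mmp7 (-4.76 to -3.26) lost the call without scurfy mock 1 or Tconv mock 1, and Adam8 lost it in 9 of the 10 fits (1.72 to 2.42).

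Further called genes act at the cell surface, in glycan synthesis and in the cytoskeleton, a grouping made after their values were seen. Gcnt1, the glycosyltransferase that builds core 2 O-glycans of selectin ligands, read 1195 and 296 in scurfy mock and 24.6 and 33.3 in Tconv mock (3.78, SE 0.53, adjusted p = 0.0208). St6gal1, a sialyltransferase, read 1873 and 393 against 27.9 and 57.3 (3.95, SE 0.67, adjusted p = 0.0474), with scurfy mock 1 well above scurfy mock 2. B4galnt4, also a glycosyltransferase gene, read 509 and 416 against 48.5 and 57.0 (2.79, adjusted p = 0.0208). For all 3 the groups did not overlap. The calls ended without either Tconv mock array and, for Gcnt1 (2.80 to 4.76) and B4galnt4 (2.65 to 2.93), without either Tconv Foxp3 array, and that of B4galnt4 ended also without scurfy mock 1. The St6gal1 call ended in 9 of the 10 fits (2.85 to 5.06).

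Actin and membrane traffic genes were also among them. Pfn2, which encodes the actin-binding protein profilin 2, read 908 and 807 against 102 and 40.6 (3.41, SE 0.45). Its other probe sets gave 2.80 and 1.23. Myo1e, a membrane-tethered myosin, read 171 and 446 against 12.5 and 11.8 (3.38, SE 0.43). Tiam1, an exchange factor that activates the GTPase Rac, read 1284 and 1205 against 235 and 226 (2.36, SE 0.29). The other probe sets, of lower intensity, gave 1.58, 0.61 and 0.03 for Myo1e and 2.15 and 1.02 for Tiam1. On the probe sets used, the groups did not overlap for Pfn2, Myo1e or Tiam1. Sdc4, the heparan sulfate proteoglycan syndecan 4, rose by 2.35 (SE 0.36), Rab39b, a small GTPase of vesicle traffic, by 3.08 (SE 0.54) and Syt11, a synaptotagmin, by 3.07 (SE 0.51). Ptpn13, a large protein tyrosine phosphatase, rose by 3.18 (SE 0.43), and Gng3, a G protein gamma subunit, by 3.31 (SE 0.55). Myo1e lost the call without either Tconv mock array (2.73 to 4.04). Pfn2, Ptpn13 and Tiam1 lost it without those or scurfy mock 1 (2.88 to 3.95, 2.84 to 3.52 and 2.31 to 2.40). Rab39b, Sdc4 and Gng3 lost it in 7 fits each (2.56 to 3.60, 2.01 to 2.69 and 3.06 to 3.55) and Syt11 in 6 (2.84 to 3.30).

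The largest differences among the 15 genes called lower were of transcripts that the Tconv mock arrays carried and the scurfy mock arrays had near background. Dgkk, a kinase that consumes the second messenger diacylglycerol, read 785 and 1328 in Tconv mock and 0.139 and 28.3 in scurfy mock (-5.28, SE 0.51, adjusted p = 0.00443), and it kept the call without any 1 array. Grp, which encodes the neuropeptide gastrin-releasing peptide, read 551 and 1435 against 15.5 and 1.58 (-5.27, SE 0.68, adjusted p = 0.0152). No array of 1 group reached the other for either gene. Dapl1, a gene of naive T cells, read 751 and 206 against 34.0 and 5.92 (-3.64, SE 0.63, adjusted p = 0.0480). Dsp, the desmosomal protein desmoplakin, read 326 and 169.8 against 7.95 and 11.3 (-3.30, SE 0.41), and Sema3e, a secreted semaphorin, read 209 and 215 against 18.0 and 7.18 (-3.02, SE 0.33, adjusted p = 0.00794). All 3 were lower on both scurfy mock arrays than on either Tconv mock array. Lgals7, galectin 7, stood at -2.59 (SE 0.44), Lin7a, a scaffold protein gene, at -2.37 (SE 0.32), Spx, the peptide spexin, at -2.34 (SE 0.34) and Stra6, a retinol transporter, at -2.22 (SE 0.38). Grp and Spx exceeded the array median on 3 arrays only, both Tconv mock arrays among them. They thus entered the test only through the group in which they were high.

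The lower genes with the highest levels were Phgdh and Dnmt3a, which were still well measured in scurfy mock. Phgdh, the first enzyme of serine synthesis, read 3466 and 2548 in Tconv mock and 716 and 574 in scurfy mock (-2.19, SE 0.29, adjusted p = 0.0175). Its other probe sets, of lower intensity, gave -1.42, -1.01 and -0.24. Dnmt3a, the de novo DNA methyltransferase, read 1563 and 1262 against 484 and 504 (-1.48, SE 0.25, adjusted p = 0.0480). Both scurfy mock arrays lay below both Tconv mock arrays. Dnmt3a was the 1 called gene of 15 DNA methylation and demethylation genes tested (median 0.23), and its call ended in 8 of the 10 fits (-1.63 to -1.33). Phgdh was the 1 called of 22 serine, amino acid and ATF4 stress genes tested (14 negative, median -0.46), where the transsulfuration enzyme Cth missed the threshold at -2.82 (adjusted p = 0.073). Without scurfy mock 1 or either Tconv mock array the Phgdh call ended (-2.41 to -1.96). Grp (-5.95 to -4.59) and Sema3e (-3.30 to -2.75) lost theirs without either Tconv mock array, Dsp (-3.74 to -2.86) without scurfy mock 1 or Tconv mock 1, Lin7a without scurfy mock 1 (-2.52 to -2.22, and not tested without either Tconv mock array, the 2 on which alone it exceeded the array median), and Dapl1 in all 10 fits (-4.53 to -2.75). Lgals7 lost it in 8 (-3.00 to -2.19), Stra6 in 9 (-2.69 to -1.76) and Spx in 5 (-2.71 to -1.97).

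Effector cytokine genes and genes that Foxp3 is known to repress were not called. Ifng, interferon gamma, read 356 and 1861 in scurfy mock and 35.2 and 209 in Tconv mock, and although the groups did not overlap the replicates stood far apart (2.96, SE 0.85, adjusted p = 0.20). Il2, the growth factor of T cells, read 6.96 and 14.8 against 11.3 and 101 (-1.09, adjusted p = 0.60). Il7r, the IL-7 receptor alpha chain, read 4671 and 2426 against 2599 and 1177 (0.94, adjusted p = 0.38), and Pde3b, a phosphodiesterase gene repressed by Foxp3, 2509.8 and 445 against 132 and 572 (1.87, adjusted p = 0.39). The groups of Il7r and Pde3b overlapped. Of 13 genes on the list of Foxp3-repressed genes, 9 were positive, 0 were called, and the median was 0.56. The Th1 and cytotoxic list (25 tested, median 0.79) and the Th2 list (17 tested, median 0.19) had 0 called, with 10 and 3 members higher on both scurfy mock arrays than on either Tconv mock array, where 38.8% of all genes were. Of 13 Th17 genes (median 0.49) Cxcr6 and Rora were called higher, against 0.442% of all genes.

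Among 33 Treg surface and effector molecules tested, Il1r2 was the 1 called, 27 were positive, and the median was 0.59. Both scurfy mock arrays lay above both Tconv mock arrays for 16 of the 33 and below them for 2, against 38.8% and 12.1% of all genes. Entpd1, the ectonucleotidase CD39, read 2542 and 1078 in scurfy mock and 394 and 227 in Tconv mock (2.41, SE 0.58, adjusted p = 0.14). Fgl2, a secreted fibrinogen-like mediator, read 758 and 112 against 6.70 and 60.3 (2.92, SE 0.79, adjusted p = 0.18). Neither pair of groups overlapped, and in each scurfy mock 1 was higher than scurfy mock 2. Nt5e encodes CD73, an ectoenzyme of adenosine production, and was near background at 21.98 and 26.4 in scurfy mock against 3.92 and 3.77 in Tconv mock (1.02, adjusted p = 0.23). The 17 co-inhibitory receptors had 0 called and a median of 0.80, with Cd96 at 3.498 (adjusted p = 0.10) and Havcr2, which encodes TIM-3, at 2.05 (adjusted p = 0.18).

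**Figure D3:**
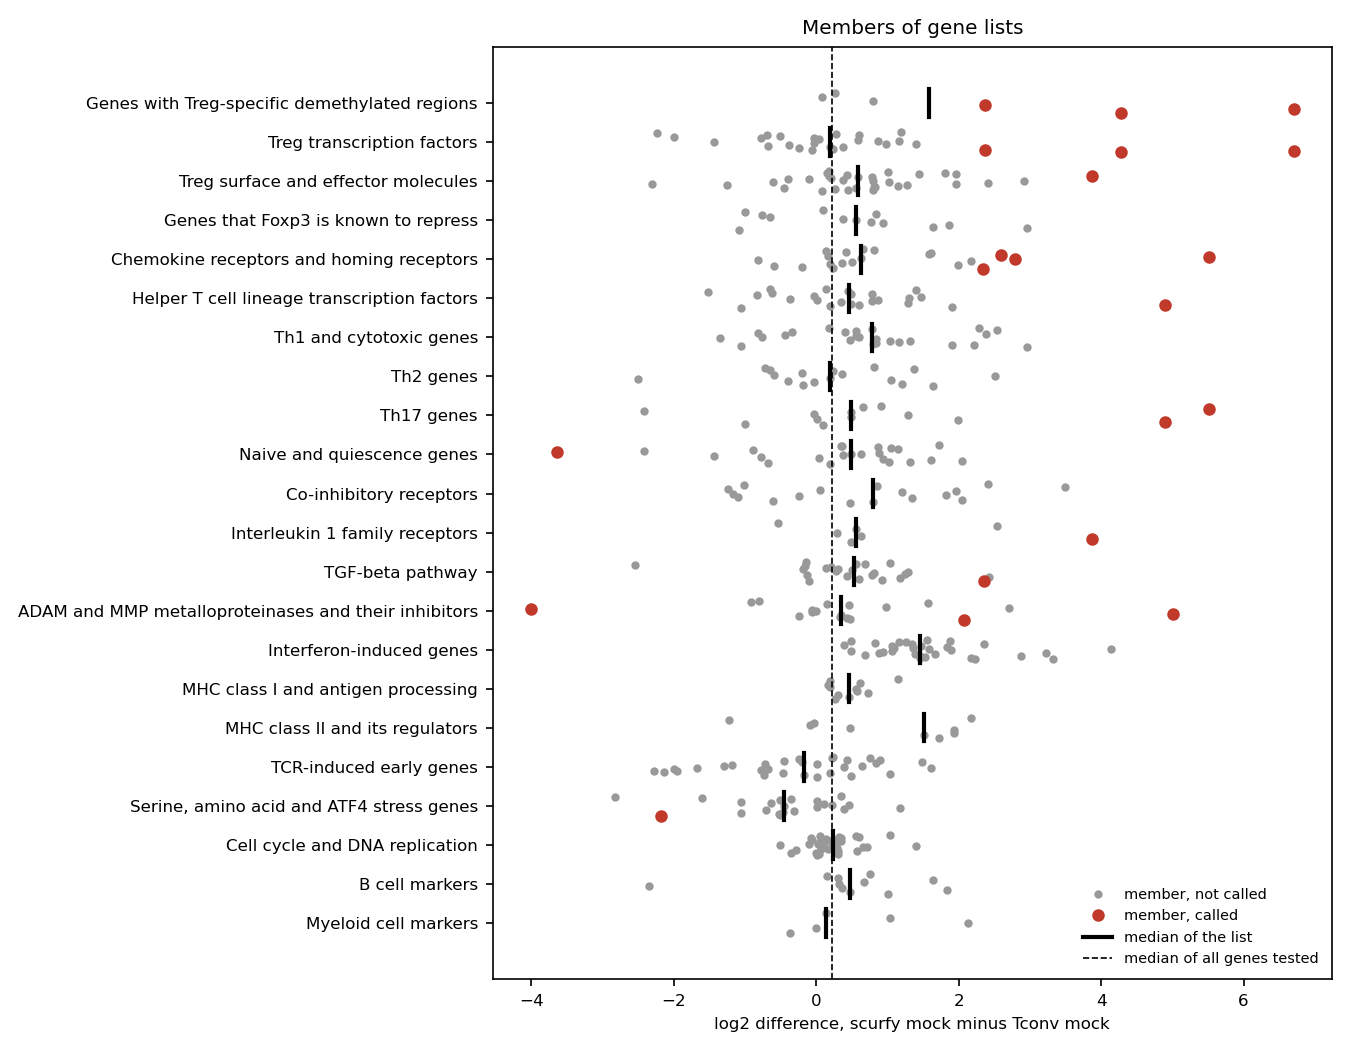
Log2 difference, scurfy mock minus Tconv mock, of every tested member of 22 gene lists (grey points not called, red points called), with the median of each list as a black bar and the median of all genes (0.22) as a dashed line. Called members stood among Treg transcription factors, chemokine receptors and metalloproteinases, and all 32 interferon-induced genes lay above 0 with none called.

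Interferon-induced genes and MHC class II genes each followed 1 of the 2 scurfy mock arrays. All 32 interferon-induced genes tested were positive and 19 were apart upward, against 68.0% and 38.8% of all genes, with a median of 1.46 and 0 called. Their mean level in log2(intensity + 16) was 10.15 on scurfy mock 1, 7.59 on scurfy mock 2, and 7.41 and 7.13 on the Tconv mock arrays. Rsad2, which encodes the antiviral enzyme viperin, read 1802 and 7.23 in scurfy mock and 8.14 and 3.93 in Tconv mock, and Ifit1, an inhibitor of viral RNA translation, 2136 and 35.9 against 27.8 and 9.51. The median was 0.34 without scurfy mock 1 and 2.54 without scurfy mock 2. Class II genes were the reverse, with Cd74, the invariant chain, at 48.6 and 869.8 in scurfy mock and 51.4 and 25.8 in Tconv mock and H2-Aa at 0.397 and 412 against 8.29 and 10.6. Their median over 9 genes was 1.51, and it was 1.63 without scurfy mock 1 and -0.24 without scurfy mock 2, with 0 called. Scurfy mock 2 was also the array with the higher B cell marker sum.

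Genes induced early by T cell receptor signals had a median of -0.17 over 31 tested members and 0 called. The list averaged 8.15 on scurfy mock 1 and 9.36 on scurfy mock 2, against 9.01 and 8.99 on the Tconv mock arrays. Its median was 0.39 without scurfy mock 1 and -0.62 without scurfy mock 2. Egr3, an immediate early zinc finger gene, read 52.3 and 134 against 520.1 and 435 (-2.28, SE 0.55, adjusted p = 0.14), and Myc, the growth-promoting transcription factor, read 191 and 393 against 901 and 919 (-1.67, SE 0.37, adjusted p = 0.11). Both genes were lower on both scurfy mock arrays than on either Tconv mock array. All 11 MHC class I and antigen processing genes were positive and had groups that did not overlap, with a median of 0.45 and 0 called, against 68.0% of all genes positive and 38.8% apart upward. The median was -0.24 over 22 cholesterol and fatty acid synthesis genes, 0.27 over 19 glycolysis genes and 0.24 over 37 cell cycle genes, with 0 called in each.

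Several other lists held 1 called gene each. Naive and quiescence genes had Dapl1 called lower of 23 tested (median 0.49), where Klf4, a factor that restrains T cell proliferation, missed the threshold with 178 and 182 in scurfy mock against 28.9 and 34.0 in Tconv mock (2.05, adjusted p = 0.054). The follicular helper list (14 tested, median 0.03) and the anergy and exhaustion list (18 tested, median 0.01) each had Tox2. Cytokine and peptide ligands had Grp lower of 36 (median 0.19), semaphorins and their receptors Sema3e of 17 (median 0.67) and diacylglycerol kinases Dgkk of 7 (median 0.17). No member was called among 22 adhesion genes (median 0.50), 33 T cell receptor signalling genes (median 0.29), 22 apoptosis genes (median 0.44), 16 costimulatory receptors (median 0.42), 14 chemokines (median 0.35) or 8 SOCS family genes (median 0.14). Cytokine receptors had 0 called of 20 (median 0.41), with Il27ra, a receptor subunit for IL-27, at 1696 and 1552 against 599 and 453 (1.61, adjusted p = 0.0618).

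The same starting cells were also compared on 4 other arrays, scurfy Foxp3 and Tconv Foxp3. No array is shared with the comparison above, whereas the estimate of the spread, the filter and the choice of probe set are. Those arrays carry the label of a Foxp3 virus, but the 1 Foxp3 probe set read 948 and 691 in scurfy Foxp3 and 18.0 and 18.9 in Tconv Foxp3, not above the mock arrays of the same cells, so it is no check of the virus. In that comparison 256 genes were called, which is 2.26% of all genes. B cell markers summed to 1757 and 5162 in scurfy Foxp3 and to 587 and 902 in Tconv Foxp3. Dendritic cell markers summed to 3251 and 2218 against 404 and 429, and NK cell markers to 500 and 589 against 82.4 and 72.7. Myeloid, mast cell and platelet sums were also higher on both scurfy Foxp3 arrays, CD8 sums were lower and red blood cell sums overlapped. The part of such cells in these calls was not tested. Of the 50 genes called higher in scurfy mock, 49 were higher in scurfy Foxp3, 48 with groups that did not overlap and 34 called, against 44.8% of all genes positive and 22.9% apart upward. Their median was 2.62 on the mock arrays and 2.69 on the Foxp3 arrays. Of the 15 called lower, 12 were lower in scurfy Foxp3, 10 without overlap and 4 called, against 55.2% of all genes negative and 25.5% apart downward. Their median was -2.37 on the mock arrays and -0.70 on the Foxp3 arrays. The count of 256 was 9 without Tconv Foxp3 2, 33 without scurfy Foxp3 2 and 36 without Tconv Foxp3 1.

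Ikzf2 read 2939.6 and 2472 in scurfy Foxp3 and 16.9 and 24.4 in Tconv Foxp3 (6.22, adjusted p = 6e-05), and Cxcr6 2111 and 2247 against 13.3 and 22.3 (6.03, adjusted p = 0.000355). Il1r2 read 2824 and 1126 against 39.1 and 12.6 (5.504, adjusted p = 0.00147). The groups of these 3 genes did not overlap there either. Dgkk was again lower (6.24 and 4.35 against 343 and 183, -3.65, adjusted p = 0.0113), as were Dnmt3a (-1.46, adjusted p = 0.027), Hs3st3b1, a heparan sulfate sulfotransferase gene (-3.75, adjusted p = 0.000384), and Ube2e2, a ubiquitin conjugating enzyme gene (-1.70, adjusted p = 0.0369). On the mock arrays Hs3st3b1 stood at -1.70, where its other probe sets gave -0.68, -0.20 and 0.39. Grp was not called between the Foxp3 groups, with 1.75 and 62.8 in scurfy Foxp3 and 2.59 and 11.6 in Tconv Foxp3 (0.72, adjusted p = 0.63), and it stood at -0.35 without scurfy Foxp3 2. Mmp7 stood at -0.61 (adjusted p = 0.59).

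Whether a gene's difference itself depended on the virus label was tested as an interaction in limma, and 0 genes passed after Benjamini-Hochberg adjustment (0% of all genes), with 915 at an unadjusted p under 0.05. Among the 65 called genes that unadjusted p was reached by 15 of the 50 higher and 11 of the 15 lower ones, against 915 of all 11321. The 65 were called on the same mock arrays that enter the interaction, which favours a low p there. These counts therefore do not test a dependence on the virus label. The count passing was 28 without scurfy mock 2. For Grp the mock difference minus the Foxp3 difference was -5.99, for Mmp7 -3.40, for Spx -2.83, for Stra6 -2.76 and for Sema3e -2.48. For Hs3st3b1, also called lower in scurfy mock, it was 2.05. For Ikzf2 it was 0.49 (95% interval -0.46 to 1.43) and for Cxcr6 -0.52 (95% interval -1.79 to 0.75). Grp, Mmp7 and Spx exceeded the array median on 3 arrays only, both Tconv mock arrays among them. They entered the test only through the group in which they were high, which favours a large value here.

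**Figure D4:**
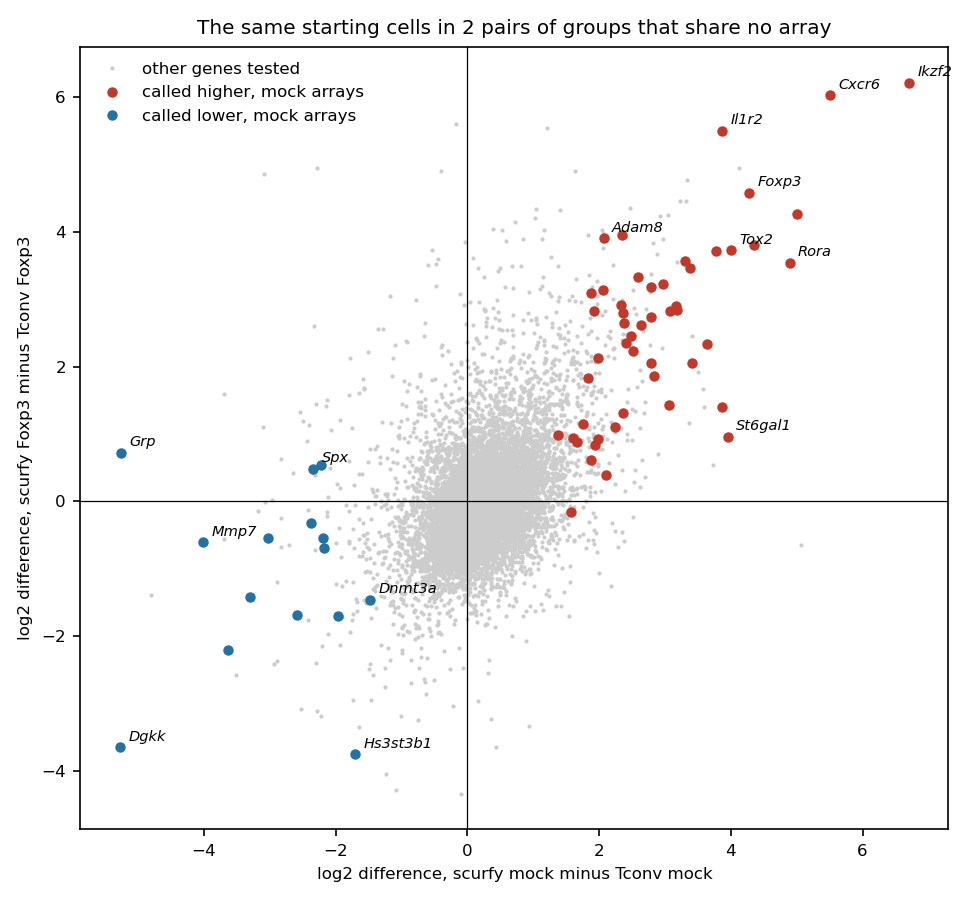
Log2 difference of each gene between scurfy mock and Tconv mock (horizontal) and between scurfy Foxp3 and Tconv Foxp3 (vertical), 2 comparisons with no array in common. Red points are the 50 genes called higher and blue points the 15 called lower on the mock arrays. Of the red points 49 lie above 0 on the vertical axis, and of the blue points 12 lie below it, with Grp above it at 0.72.

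Treg mock, the GFP+ cells with an intact Foxp3 gene, was set against both groups. Treg mock minus Tconv mock shares its controls with the comparison above, so the values are given side by side. Ikzf2 stood at 6.75 in Treg mock and 6.70 in scurfy mock, Ikzf4 at 2.38 in both, Foxp3 at 5.43 and 4.28, and Dgkk at -5.72 and -5.28. Ccr1 stood at 0.20 and 2.34 and Tgfb2 at 0.30 and 2.36, and neither was called in Treg mock. Of the 50 genes called higher in scurfy mock, 25 were also called higher in Treg mock, and of the 15 called lower, 8 were called lower. Of all 11321 genes, 104 were called higher and 23 lower in Treg mock. The shared Tconv mock arrays favour such overlap. In the Treg mock comparison 127 genes were called (1.12% of all genes), a count of 17 without Tconv mock 2, 18 without Treg mock 2, 45 without Tconv mock 1, 60 without Tconv Foxp3 1 or 2, 73 without scurfy Foxp3 1 or 2 and 219 without scurfy mock 1 or 2. Between scurfy mock and Treg mock 29 genes were called (0.256%), 8 higher and 21 lower in scurfy mock. That count was 2 without Treg mock 1, 6 without Treg mock 2, 4 without scurfy mock 1, 65 without scurfy mock 2 and 15 without either Tconv Foxp3 array.

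Of the 50 genes higher in scurfy mock than in Tconv mock, 5 were also called over Treg mock, namely Cxcr6, Pawr, Sln, Myo16 and 1700061F12Rik, and Cpe was called below it. Of all 11321 genes, 8 were called over Treg mock and 21 below it. The scurfy mock arrays on which the 50 were called also enter this comparison, which favours calls over Treg mock. Cxcr6 read 3433 and 1485 in scurfy mock against 299.9 and 202 in Treg mock (3.12, SE 0.40, adjusted p = 0.021). Pawr, a proapoptotic WT1 regulator, read 63.1 and 75.7 against 0.438 and 3.65 (2.24, adjusted p = 0.018), and Sln, the calcium pump regulator sarcolipin, 44.7 and 75.7 against 1.25 and 1.32 (2.11, adjusted p = 0.045). All 3 were without overlap. Sln and Myo16 exceeded the array median on the 2 scurfy mock arrays alone, so they entered the test only through the group in which they were high, and they were not tested when either of those arrays was left out. Tox2 at 2.35 (adjusted p = 0.055) and Il1r2 at 2.41 (adjusted p = 0.10) were not called over Treg mock, and Ikzf2 (-0.05), Ikzf4 (-0.01) and Foxp3 (-1.16, adjusted p = 0.24) were not called either. Ikzf2 and Ikzf4 took either sign against Treg mock when 1 array was left out.

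Cpe, carboxypeptidase E, read 55.0 and 74.9 in scurfy mock, 6.75 and 0.391 in Tconv mock and 2178 and 1488 in Treg mock, which put scurfy mock above Tconv mock (2.06) and below Treg mock (-4.50, adjusted p = 0.00128). Nt5e followed at -4.30 below Treg mock (838 and 720.3 there). Itgb8, the integrin subunit that activates TGF-beta, read 0.118 and 17.4 in scurfy mock and 6.51 and 1.93 in Tconv mock, against 233 and 349 in Treg mock (-3.70, adjusted p = 0.021). Tox read 45.6 and 79.2 in scurfy mock against 838 and 722 in Treg mock (-3.37, adjusted p = 0.00786). Itgb8 and Tox thus differed from Treg mock but were not called against Tconv mock (0.21 and 0.37). Ipcef1 (-3.74), Gad1, which makes the transmitter GABA (-3.69), Tead1, a Hippo pathway factor (-3.69), and Ephx1, an epoxide hydrolase (-3.29), were also called below Treg mock.

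**Figure D5:**
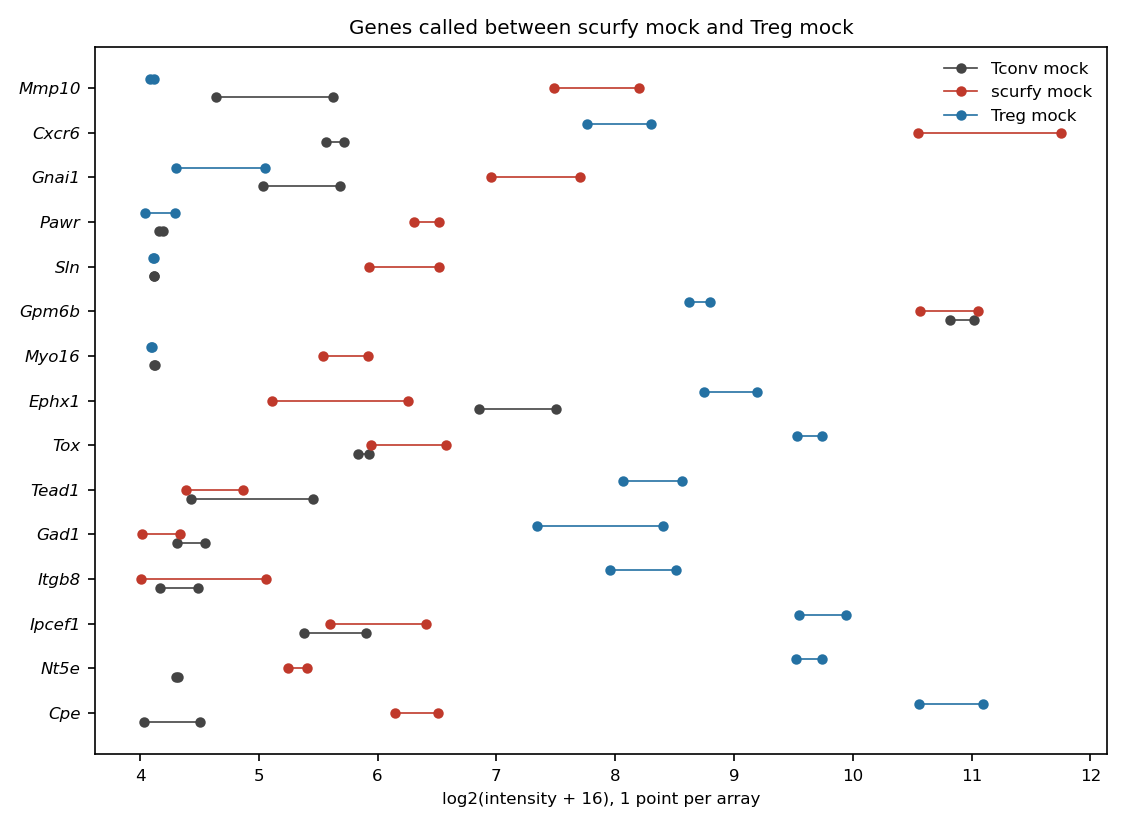
Level of 15 genes called between scurfy mock and Treg mock on the 2 arrays each of scurfy mock (red), Treg mock (blue) and Tconv mock (grey), as log2(intensity + 16), with a line joining the 2 arrays of a group. Cxcr6, Pawr, Sln and Myo16 were highest in scurfy mock, whereas Nt5e, Itgb8, Gad1, Tead1 and Tox were high in Treg mock alone. Cpe in scurfy mock lay between the other groups.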

How the data were processed

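RNA was extracted with RNeasy Micro columns, amplified with NuGEN FL-Ovation reagents and hybridised to 10 Affymetrix arrays, per the labels' protocols. The authors deposited a linear intensity for each of 45101 probe sets, made with Affymetrix Expression Console per the submitters' processing notes. Its version, summary method and scaling: not given in the sources used here. No deposited column was left unused (0).

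Values were taken as log2(intensity + 16), with no further scaling. For each of 18193 genes the probe set of highest mean was kept, and 11321 genes that exceeded the median of an array on 2 or more arrays were tested. limma 3.58.1 (R 4.3.3) was fitted to all 5 groups with 5 residual degrees of freedom (prior 4.07, prior SD 0.343), with Benjamini-Hochberg adjustment over all genes tested and no covariate. The steps were tested on simulated data.

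The groups compared, the 45 gene lists and the genes to name were chosen with earlier results of these data known. Named were the 16 largest higher and 10 largest lower called genes without overlap (clone names left out), 13 fixed genes, each list's called members and up to 4 of smallest p, and the 8 largest each way against Treg mock. From these the text gives those that describe each group. Arnt2, Snai2, Tiam1, Sdc4, Rab39b, Syt11, B4galnt4, Ppp1r3f, Ccdc22, Usp27x, Plp2, Clcn5, Gpkow, Wdr45, Rsad2, Ifit1, H2-Aa, Cd3d, Ighm, Hs3st3b1 and Ube2e2 lie outside the rule and were chosen after their values were seen. The labels number the replicates, but same-numbered arrays of scurfy mock and Tconv mock deviated together only at r = 0.165, and other pairs of groups at -0.17 to 0.18, so the numbers were not taken as pairs. The alternatives were quantile or 75th percentile scaling, pseudocounts of 1 and 64, other filters and probe set rules, other variance settings, a fit to the compared groups alone, a fit with a replicate block, and fits without each array in turn.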

Additional observations from a re-analysis of the deposited data

Results flagged for a closer look

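Probe sets without a single gene symbol were outside the comparison by gene, and some of them differed between scurfy mock and Tconv mock in the fit of every probe set (limma with Benjamini-Hochberg adjustment). Of 3715 tested probe sets with no symbol, 8 were called, and of 619 with several symbols, 1 was called, against 76 of 21735 with 1 symbol. All 9 were higher in scurfy mock. The largest was 1425145_at, with no symbol, at 1374 and 671 in scurfy mock and 27.1 and 11.8 in Tconv mock (4.82 on the log2 scale, SE 0.47, adjusted p = 0.0036). Next came 1427355_at, at 610.1 and 937 against 25.3 and 56.1 (3.82, SE 0.35, adjusted p = 0.0030). The probe set with several symbols, 1431008_at, read 4617 and 3766 against 627 and 458 (2.92, SE 0.47, adjusted p = 0.0389). The other 6 stood between 2.16 and 2.78.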

How the results depend on the processing

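At the main setting 65 genes were called between scurfy mock and Tconv mock (50 higher, 15 lower), 256 between scurfy Foxp3 and Tconv Foxp3, 29 between scurfy mock and Treg mock, 127 between Treg mock and Tconv mock and 0 in the interaction, and the numbers below follow that order. Quantile normalization gave 71 (50 higher, 21 lower) and 59 and 192 in the Treg mock comparisons, with 57 of the 65 shared. A common 75th percentile gave 89 (63 higher, 26 lower), 59 and 205, with 58 shared. A pseudocount of 1 gave 35 (30 and 5), 110, 7 and 56, and one of 64 gave 41, 30 of them higher. Without the filter there were 28 (21 and 7), 124, 16 and 54. With each probe set fitted there were 52 against Treg mock and 281 in Treg mock. A trended, robust variance gave 107 (81 and 26), 47 in scurfy mock against Treg mock, 200 in Treg mock and 1 in the interaction. The compared groups alone gave 1 (1 and 0), 435, 0 and 26. A replicate block gave 42 (33 and 9), 167, 9 and 83.

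Leaving out 1 array gave 5 to 233 called (4 to 171 higher, 1 to 62 lower), 9 to 374, 2 to 65, 17 to 219 and 0 to 28. Directions turned for genes that were not called. Il2ra was -0.23 and Tnfrsf18 -0.059 at a common 75th percentile, and Tnfrsf18 ran from -0.11 to 0.63 without 1 array. Against Treg mock, Ikzf4 was 0.020 at a common 75th percentile and 0.033 as a mean of probe sets, and it ran from -0.28 to 0.27 without 1 array, where Ikzf2 ran from -0.33 to 0.23 (0.15 without scurfy mock 2). Between the Foxp3 groups, 1500011B03Rik was 0.065 as a mean of probe sets and Grp ran from -0.35 to 1.80. The causes were not tested. With 2 arrays in a group and intensities near background in 1 group, small differences and low genes are measured with little precision.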
